A study of Mus musculus with 4 samples.

Results

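The genes described here were the protein arginine methyltransferase genes of the mouse (Prmt1, Prmt2, Prmt3, Carm1, Prmt5, Prmt6, Prmt7, Prmt8 and Prmt9) together with Wdr77, which encodes the partner subunit of Prmt5. They were chosen by name, and made up 10 of the 21938 protein-coding genes of the annotation used here (GENCODE mouse release 21, genome build mm10). Chromatin accessibility had been measured by ATAC-seq, in which a transposase cuts open chromatin, and a peak is an interval where a peak caller found many cuts. The cells were E14 mouse embryonic stem cells (ESCs), a cell line, grown with serum and LIF, infected with a pLKO lentivirus that carried a short hairpin RNA, selected with puromycin for 2 days and collected 2 days later. There was 1 library with a hairpin against GFP (shGFP) and there were 3 libraries with a hairpin against luciferase (shLuc replicates 1, 2 and 3), and neither hairpin targets a mouse gene, so all 4 libraries were controls. The labels do not say whether the shLuc replicates came from separate cultures, and libraries with a hairpin against a chromatin modifier, Prmt5 among them, were not analysed here.

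Protein arginine methyltransferases move a methyl group from S-adenosylmethionine to the side chain of arginine in histones and in RNA-binding proteins. Most members (Prmt1, Prmt2, Prmt3, Carm1, Prmt6 and Prmt8) make the asymmetric dimethyl mark, Prmt5 and Prmt9 make the symmetric dimethyl mark, and Prmt7 adds a single methyl group. Most of these genes are used in nearly all tissues, whereas Prmt8 is known for its use in neurons, and Prmt5 with Wdr77 is required for early mouse development.

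Any peak lying 1 kb or less from the start of an annotated transcript of a gene was counted as its promoter peak. Of the 10 genes, 8 had a promoter peak in all 4 libraries (Prmt2, Prmt3, Carm1, Prmt5, Prmt6, Prmt7, Prmt9 and Wdr77), against 42.5% of all protein-coding genes. Prmt1 had one in 3 libraries and lacked it in shLuc replicate 1, a pattern found in 10% of protein-coding genes. Prmt8 had none in any library, as did 35.3% of protein-coding genes. An exact permutation test of 1 library against 3 cannot give a p below 0.25, so no test was run, and all values below describe these libraries.

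The sequences below are promoter windows from RefSeq (GRCm38.p6, which has the coordinates of mm10), each running from 250 bases before to 50 bases after a transcript start and written 5′ to 3′ on the strand of the gene. CpG dinucleotides are in capitals. They are shown because peaks covered the whole window of Prmt5 and of Wdr77 in all 4 libraries and the whole window of Prmt1 in 3 of them, but no base of the window of Prmt8 in any. The windows of Prmt2 and Prmt7, not shown, were also covered whole in all 4 libraries. That of Prmt6, not shown either, was covered whole in the same 3 libraries as that of Prmt1. The windows lie at chr14:54517421-54517720 (minus strand) for Prmt5, chr3:105959248-105959547 (plus strand) for Wdr77, chr7:44986371-44986670 (minus strand) for Prmt1 and chr6:127769106-127769405 (minus strand) for Prmt8.
Prmt5 promoter: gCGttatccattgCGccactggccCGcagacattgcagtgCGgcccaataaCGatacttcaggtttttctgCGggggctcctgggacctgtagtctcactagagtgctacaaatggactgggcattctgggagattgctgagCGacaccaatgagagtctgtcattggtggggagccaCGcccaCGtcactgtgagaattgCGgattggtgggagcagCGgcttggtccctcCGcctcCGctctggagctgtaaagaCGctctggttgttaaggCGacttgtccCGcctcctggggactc
Wdr77 promoter: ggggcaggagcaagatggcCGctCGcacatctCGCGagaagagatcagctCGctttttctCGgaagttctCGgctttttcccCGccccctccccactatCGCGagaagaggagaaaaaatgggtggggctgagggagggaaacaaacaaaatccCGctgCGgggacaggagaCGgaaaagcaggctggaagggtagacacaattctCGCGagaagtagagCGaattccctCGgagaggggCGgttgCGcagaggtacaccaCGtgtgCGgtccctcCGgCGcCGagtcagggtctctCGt
Prmt1 promoter: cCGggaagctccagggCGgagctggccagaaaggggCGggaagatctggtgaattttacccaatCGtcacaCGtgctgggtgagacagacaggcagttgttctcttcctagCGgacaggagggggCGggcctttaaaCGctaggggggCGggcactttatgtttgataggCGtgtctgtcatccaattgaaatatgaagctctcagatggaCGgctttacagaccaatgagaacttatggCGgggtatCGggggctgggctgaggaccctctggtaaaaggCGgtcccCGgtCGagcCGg
Prmt8 promoter: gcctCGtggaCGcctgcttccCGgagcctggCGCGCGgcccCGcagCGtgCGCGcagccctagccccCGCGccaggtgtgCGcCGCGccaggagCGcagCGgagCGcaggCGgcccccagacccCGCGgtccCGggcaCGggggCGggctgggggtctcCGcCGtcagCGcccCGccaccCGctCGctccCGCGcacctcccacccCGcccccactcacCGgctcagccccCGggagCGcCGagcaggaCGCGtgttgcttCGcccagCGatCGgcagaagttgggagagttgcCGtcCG

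The windows differed in their CpG content. The table holds 2 overlapping windows for Prmt8, of which the first is used here, and it lies inside the gene, downstream of the single start that GENCODE gives. The Prmt8 window held 44 CpG dinucleotides, the most among the 9 genes with a window (all but Carm1), followed by Prmt7 with 39, Wdr77 with 25, Prmt3 with 24, Prmt2 with 20, Prmt1 and Prmt9 with 17 each, and Prmt5 and Prmt6 with 16 each. The median of all 32851 windows in the table was 7. G and C made up 79% of the Prmt8 window, and between 55% (Prmt6) and 69.7% (Prmt7) of the others. By the number of CpG in this window, the one promoter with no peak in any library ranked first of the 9, but by the ratio of observed to expected CpG in the same window Prmt8 (0.951) came after Prmt7 (1.07) and Wdr77 (0.952).

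Because a gene can have many starts, CpG content was also measured from 500 bp before to 500 bp after the 5′-most protein-coding start of each gene, as the ratio of observed to expected CpG. For Prmt8 the ratio was 0.709, and for the other members it ran from 0.628 (Prmt2) through a median of 0.820 to 0.949 (Carm1). Over 21924 protein-coding genes, the median ratio was 0.179 for genes with no promoter peak, 0.522, 0.602 and 0.629 for genes with one in 1, 2 and 3 libraries, and 0.745 for genes with one in all 4. Prmt8 thus had a ratio above that of 96.0% of the genes without a promoter peak. Of the 7393 protein-coding genes with a ratio at least as high as that of Prmt8, 73.3% had a promoter peak in all 4 libraries and 310, or 4.19%, had none. The CpG ratio at the start of Prmt8 therefore lay within the range of the other members, whereas its promoter peaks were absent.

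**Figure D1:**
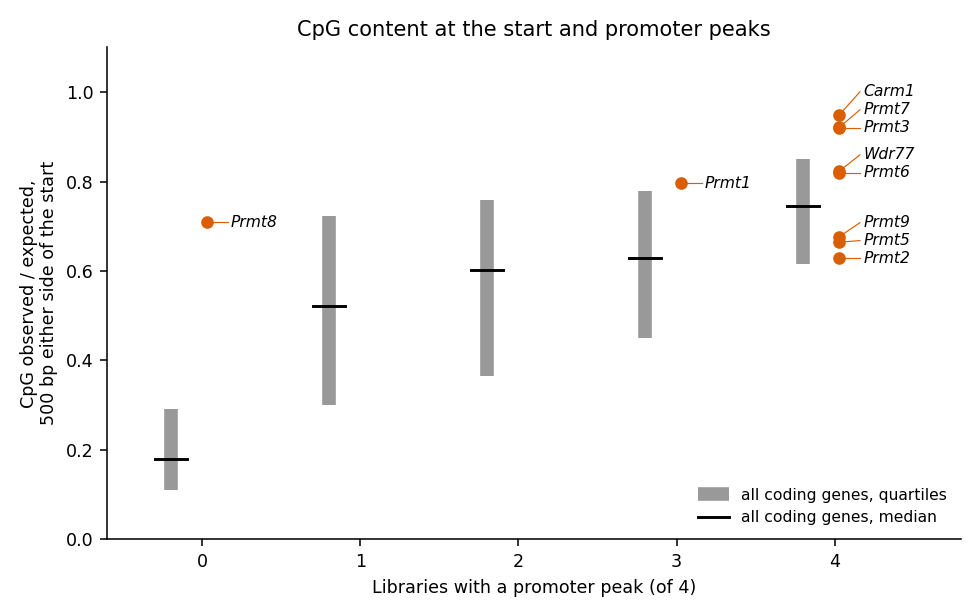
Ratio of observed to expected CpG from 500 bp before to 500 bp after the 5′-most protein-coding start (vertical axis) against the number of libraries with a promoter peak (horizontal axis). Orange points are the 10 genes, grey bars span the quartiles of all protein-coding genes and black lines are their medians. Prmt8, at 0.709 with no promoter peak, lies above the bar of the genes without a promoter peak and among the values of the other members.

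Among the genes that make asymmetric dimethylarginine, Carm1 had the promoter peak with the least ratio of widest to narrowest over the 4 libraries, 1.04. Carm1, a coactivator of nuclear receptors that methylates histone H3 (chr9:21546894-21592623, plus strand), had a peak of 1607 bp in shGFP and of 1612, 1595 and 1552 bp in shLuc replicates 1, 2 and 3 (mean 1586 ± 30.9, SD, n = 3). The 4 peaks were nearly the same interval: the bases common to all of them were 95.2% of the bases covered by any. Each Carm1 peak reached 1283 to 1317 bp upstream of the 5′-most protein-coding start but only 268 to 312 bp into the gene, so that most of it lay before the start. It was wider than 94.2% to 99.3% of the promoter peaks of protein-coding genes in the same library.

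Prmt1, the enzyme that carries out most asymmetric arginine dimethylation (chr7:44975989-44986568, minus strand), had a promoter peak of 1509 bp in shGFP, none in shLuc replicate 1, and 1489 and 1733 bp in shLuc replicates 2 and 3 (mean 1611 ± 173, SD, n = 2). Where it was present, it was again a wide peak, wider than 91.8% to 97.7% of promoter peaks in the same library, and it covered 8 of the 12 annotated start sites of the gene. The other 4 start sites lay inside the gene, between 2058 and 7335 bp from the nearest peak in the 3 libraries with a promoter peak and at least 7626 bp from any in shLuc replicate 1. In shLuc replicate 1 the nearest peak to the 5′-most start was 10663 bp away. The gap was thus not filled by a peak at another start of Prmt1.

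Prmt6, a nuclear enzyme that methylates histone H3 (chr3:110246109-110250998, minus strand), varied the most in width. Its promoter peak was 1659 bp wide in shGFP, 467 bp in shLuc replicate 1, and 1649 and 1505 bp in shLuc replicates 2 and 3 (mean 1207 ± 645, SD, n = 3). The widest was 3.55 times the narrowest. In shGFP and in shLuc replicates 2 and 3 the peak spanned both annotated starts, whereas in shLuc replicate 1 it began 598 bp inside the gene and covered neither. With a promoter window of 500 bp in place of 1 kb, Prmt6 would therefore not count as having a promoter peak in shLuc replicate 1.

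Prmt3, a cytosolic enzyme that methylates a ribosomal protein (chr7:49778346-49858265, plus strand), had a peak of 1434 bp in shGFP and of 634, 870 and 840 bp in the shLuc replicates (mean 781 ± 128, SD, n = 3). The shGFP peak exceeded the shLuc mean by 653 bp, more than the SD. The extra length lay on the downstream side: the peak reached 1211 bp into the gene in shGFP and 480, 528 and 660 bp in shLuc replicates 1, 2 and 3. Prmt2, which binds nuclear receptors and has weak activity (chr10:76207222-76237865, minus strand), had a peak of 959 bp in shGFP and of 911, 895 and 899 bp in the shLuc replicates (mean 902 ± 8.33, SD, n = 3). Its shGFP peak was also wider than in every shLuc library, by 57.3 bp over their mean, and the 4 peaks shared 86.5% of the bases covered by any.

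The enzymes of the symmetric mark had the narrowest promoter peaks by the mean over the 4 libraries, 650.5 bp for Prmt5 and 612 bp for Prmt9. Prmt5 (chr14:54507187-54517525, minus strand), which methylates histones and the Sm proteins of the spliceosome, had a peak of 646 bp in shGFP and of 624, 676 and 656 bp in the shLuc replicates (mean 652 ± 26.2, SD, n = 3). The Prmt5 peak was narrow but steady: the widest was 1.08 times the narrowest, and 91.2% of the bases covered by any were common to all 4. It was wider than 20.3% of the promoter peaks of protein-coding genes in shGFP and than 41.7% in shLuc replicate 1. Wdr77 (chr3:105959369-105970037, plus strand), the WD-repeat protein that binds Prmt5 and its substrates, had a peak of 892 bp in shGFP and of 654, 858 and 869 bp in the shLuc replicates (mean 794 ± 121, SD, n = 3). Both subunits of the complex thus had a promoter peak in every library.

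Prmt9, which methylates the splicing factor Sf3b2 (chr8:77549397-77581338, plus strand), had a peak of 608 bp in shGFP and of 422, 795 and 623 bp in the shLuc replicates (mean 613 ± 187, SD, n = 3). The peak of 422 bp was the narrowest promoter peak of any member in any library. Prmt7 (chr8:106210936-106252794, plus strand) had a peak of 1290 bp in shGFP and of 881, 1267 and 1183 bp in the shLuc replicates (mean 1110.3 ± 203, SD, n = 3). The Prmt7 peaks ended within a short stretch, 407 to 522 bp into the gene, and differed mainly at the upstream end, which lay 425 bp from the start in shLuc replicate 1 and 744 to 823 bp from it in the other libraries.

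**Figure D2:**
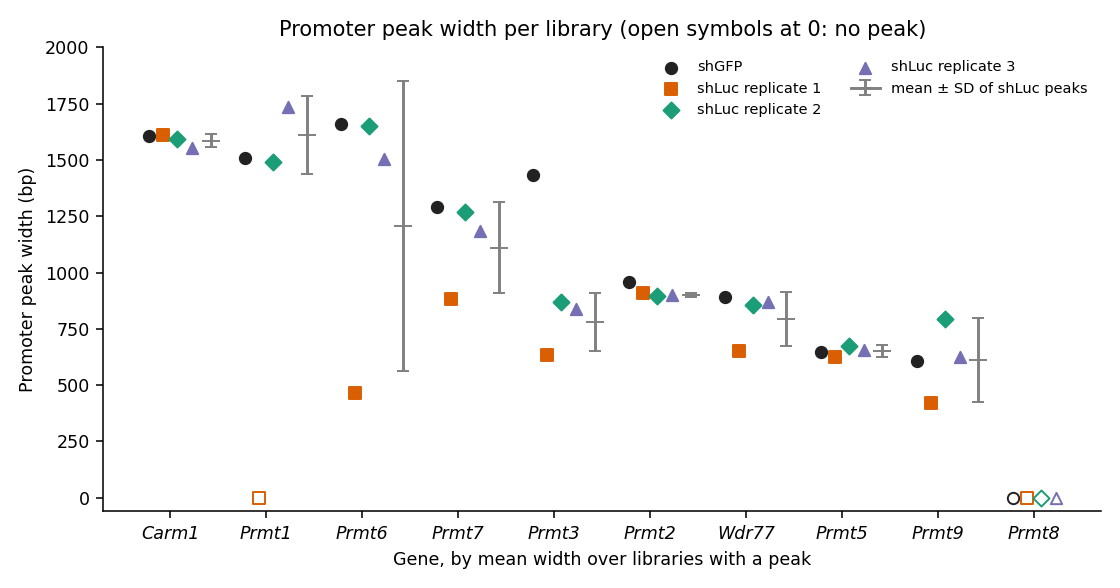
Width of the promoter peak in bp (vertical axis) of each of the 10 genes (horizontal axis) in each library, with the mean ± SD of the shLuc libraries that had a peak in grey. Open symbols at 0 stand for no peak. Carm1 stayed between 1552 and 1612 bp, Prmt6 fell to 467 bp in shLuc replicate 1, Prmt3 stood apart in shGFP at 1434 bp, and Prmt8 had no peak.

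**Figure D3:**
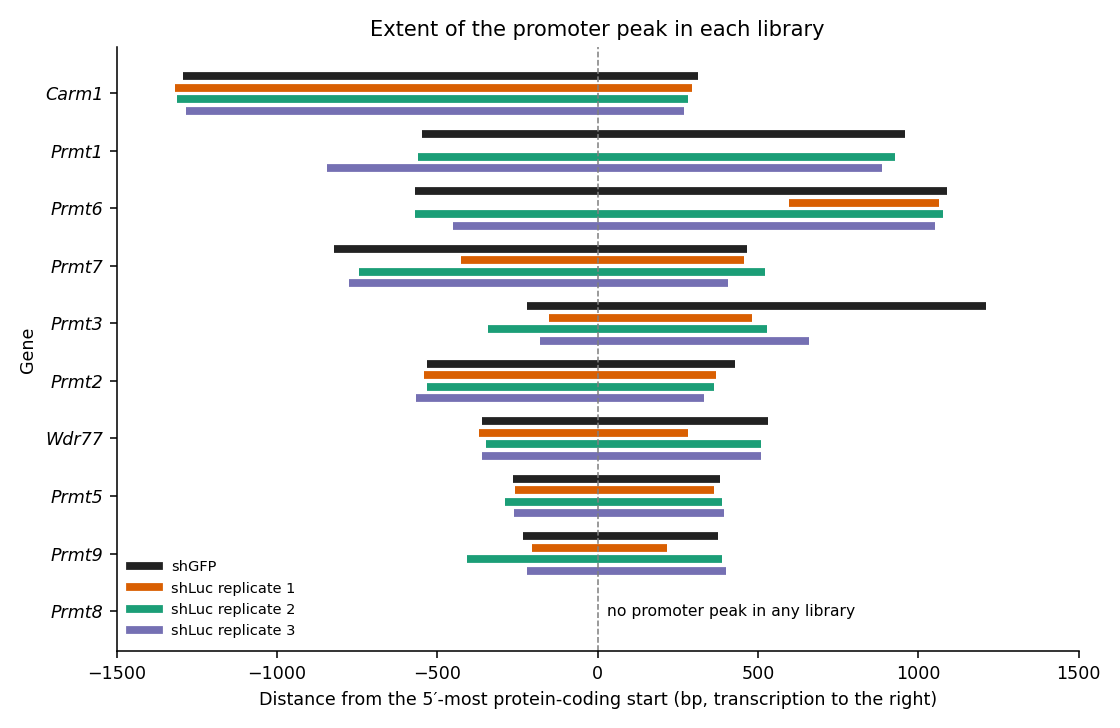
Extent of each promoter peak, in bp from the 5′-most protein-coding start with transcription to the right (horizontal axis), for each gene and library. The Carm1 peaks lie mostly upstream of the start, the Prmt6 peak of shLuc replicate 1 lies wholly inside the gene, and the Prmt3 peak of shGFP reaches 1211 bp downstream.

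Over the members together, promoter peaks were widest in shGFP, the longest list, and narrowest in shLuc replicate 1, the shortest. The lists held 41943 peaks in shGFP and 17860, 41401 and 31585 in shLuc replicates 1, 2 and 3. A promoter peak was found for 9 members in shGFP, where 60.7% of protein-coding genes had one, for 8 in shLuc replicate 1 (46.8%), for 9 in shLuc replicate 2 (60.3%) and for 9 in shLuc replicate 3 (55.1%). The median width over the members with a peak was 1290 bp in shGFP and 644, 895 and 899 bp in the shLuc replicates (mean 813 ± 146, SD, n = 3), against medians over all protein-coding genes with a promoter peak of 1000 bp in shGFP and 716, 963 and 922 bp in the shLuc replicates (mean 867 ± 132, SD, n = 3). The members' median was above that of all genes in shGFP alone and below it in each shLuc library. The shGFP median was the width of Prmt7 and rests on few genes. The next narrower width in shGFP, 959 bp for Prmt2, was below the 1000 bp of all genes.

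Of the 8 members with a promoter peak in all 4 libraries, 5 had a peak in shGFP that was wider than in every shLuc library (Prmt2, Prmt3, Prmt6, Prmt7 and Wdr77), and 45% of the protein-coding genes with a promoter peak in all 4 did so. For 2 of the 8, Prmt2 and Prmt3, the shGFP width lay farther from the shLuc mean than 1 SD of the shLuc libraries, against 42.7% of those genes. In 6 of the 8 (Prmt3, Prmt5, Prmt6, Prmt7, Prmt9 and Wdr77) the narrowest peak was in shLuc replicate 1, as for 74.7% of those genes. The absent Prmt1 peak was in this same library, which had the shortest list. The lists give no numbers of reads, and the sequencing statistics of the study, whose values are not used here, list the fewest reads for this library, so a closed promoter and one missed at lower depth cannot be told apart there.

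Annotated starts that no peak reached were spread over most members. A peak came within 1 kb, in at least 1 library, of 8 of 12 starts of Prmt1, 6 of 9 of Prmt2, 5 of 7 of Prmt3, 5 of 9 of Carm1, 5 of 7 of Prmt5, 2 of 2 of Prmt6, 4 of 7 of Prmt7, 4 of 5 of Prmt9 and 3 of 5 of Wdr77, and did not reach the single start of Prmt8. In each member with a promoter peak, all of its promoter peaks over the 4 libraries overlapped 1 shared stretch of DNA. That stretch held the 5′-most protein-coding start, except in Prmt6, where it lay inside the gene. Promoter peaks were thus seen at a single place in each of these 9 genes, although all of them have more than 1 annotated start.

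For 4 of the 9 genes with a promoter peak, that peak also lay within 1 kb of the start of another gene. The share of all protein-coding genes with such a shared peak was not counted, so no trait of the members can be read from this. The Prmt7 peak was shared with the protein-coding gene Slc7a6os, and the Wdr77 peak with Atp5f1, a gene of the mitochondrial ATP synthase, and with Gm42890. The Prmt1 peak was shared with Gm15545 and the Prmt6 peak with C130013H08Rik, neither of which is protein-coding. At these 4 promoters, the peak cannot be given to one of the genes alone.

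Beyond the promoters, peaks in the gene body and up to 50 kb on either side of it were collected and overlapping peaks of the 4 libraries were merged. This gave 42 regions, of which 9 were the members' own promoters and 33 were other regions. Of these 33, 15 lay at the promoter of another gene (1 of them over the last exon of Carm1), 2 lay in an intron of the member (Prmt7 and Prmt8) and 16 lay between promoters. In all 4 libraries, 10 of the 33 were found, and 10 in only 1 library.

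The number of nonpromoter peaks nearby differed between members, from none to 6 in a library, with values in between. Around Prmt1 there were 6 nonpromoter peaks in shGFP and 4, 6 and 4 in the shLuc replicates, around Carm1 4 and then 3, 6 and 3, around Prmt5 5 and then 2, 5 and 4, and around Prmt9 5 and then 2, 3 and 3. Around Prmt7 there were 2 in shGFP and 2, 5 and 1 in the shLuc replicates, around Wdr77 2 and then 0, 2 and 2, and around Prmt3 1 and then 1, 0 and 0. Prmt2 and Prmt6 had no peak but their own promoter in any library. Presence of a promoter peak in every library therefore went with anything from an otherwise empty 50 kb on each side to 6 further peaks.

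The intron peak of Prmt7, at chr8:106226462-106226895, was found in shLuc replicates 1 and 2 only, with widths of 311 and 434 bp, and lay 15526 bp downstream of the 5′-most start. Around Carm1, the regions found in all 4 libraries were at promoters of other genes, 36047 bp upstream and 45449 and 68708 bp downstream of its start, and the 3 regions between promoters were each absent from shLuc replicates 1 and 3. Around Prmt5, the regions in all 4 libraries were likewise at promoters of other genes, 36093 bp upstream and 52598 bp downstream, and the 4 regions between promoters were all absent from shLuc replicate 1.

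Prmt8 (chr6:127689011-127769472, minus strand) differed from the other members in having no peak at its start in any list, and its only nearby region was in an intron. The gene spans 80462 bp and has 1 annotated transcript of 10 exons. In shGFP the nearest peak downstream of the start was 68123 bp away and the nearest upstream was 118075 bp away, at the promoter of Tspan11. In shLuc replicate 1 no peak lay within 50 kb of the gene: the nearest were 207683 bp downstream and 265203 bp upstream, the latter at the promoter of Tspan9. In shLuc replicates 2 and 3 the nearest peaks were 67969 and 67979 bp downstream and 58788 and 58905 bp upstream. The stretch without any peak around the Prmt8 start thus measured 186197 bp in shGFP and 472885, 126756 and 126883 bp in shLuc replicates 1, 2 and 3.

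The intron region, at chr6:127701093-127701503, lay in intron 7, which is 6041 bp long. Its peak was 257 bp wide in shGFP, absent in shLuc replicate 1, and 400 and 369 bp wide in shLuc replicates 2 and 3. These were narrow peaks, below the median width of all peaks of the library in each case (655 bp for shGFP, 642 bp for shLuc replicate 2 and 663 bp for shLuc replicate 3). Repeats made up 5.35% of the region, and none of its words of 50 bases occurred elsewhere in the genome. The bases of the shGFP peak, chr6:127701093-127701349 on the plus strand of mm10, are shown with CpG in capitals because they are the only accessible DNA listed for Prmt8 in that library, and they hold 5 CpG dinucleotides against the 44 of the promoter window.
Prmt8 intron peak: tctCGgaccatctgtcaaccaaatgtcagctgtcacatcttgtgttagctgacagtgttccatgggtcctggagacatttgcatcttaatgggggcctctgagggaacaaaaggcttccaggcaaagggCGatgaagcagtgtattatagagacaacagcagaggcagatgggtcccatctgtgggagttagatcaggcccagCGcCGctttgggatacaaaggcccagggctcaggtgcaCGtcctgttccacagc

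Around Prmt8 there was 1 nonpromoter peak in shGFP and 0, 1 and 1 in the shLuc replicates, whereas the other members had a median of 2 in shGFP and of 2, 3 and 2 in shLuc replicates 1, 2 and 3. In the same order of libraries, the median over all protein-coding genes was 3, 1, 3 and 2. Over those without a promoter peak in any of the 4 libraries it was 2, 1, 2 and 1. Among the members themselves, Prmt2 and Prmt6, with a promoter peak in all 4 libraries, had no neighbouring peak in any.

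**Figure D4:**
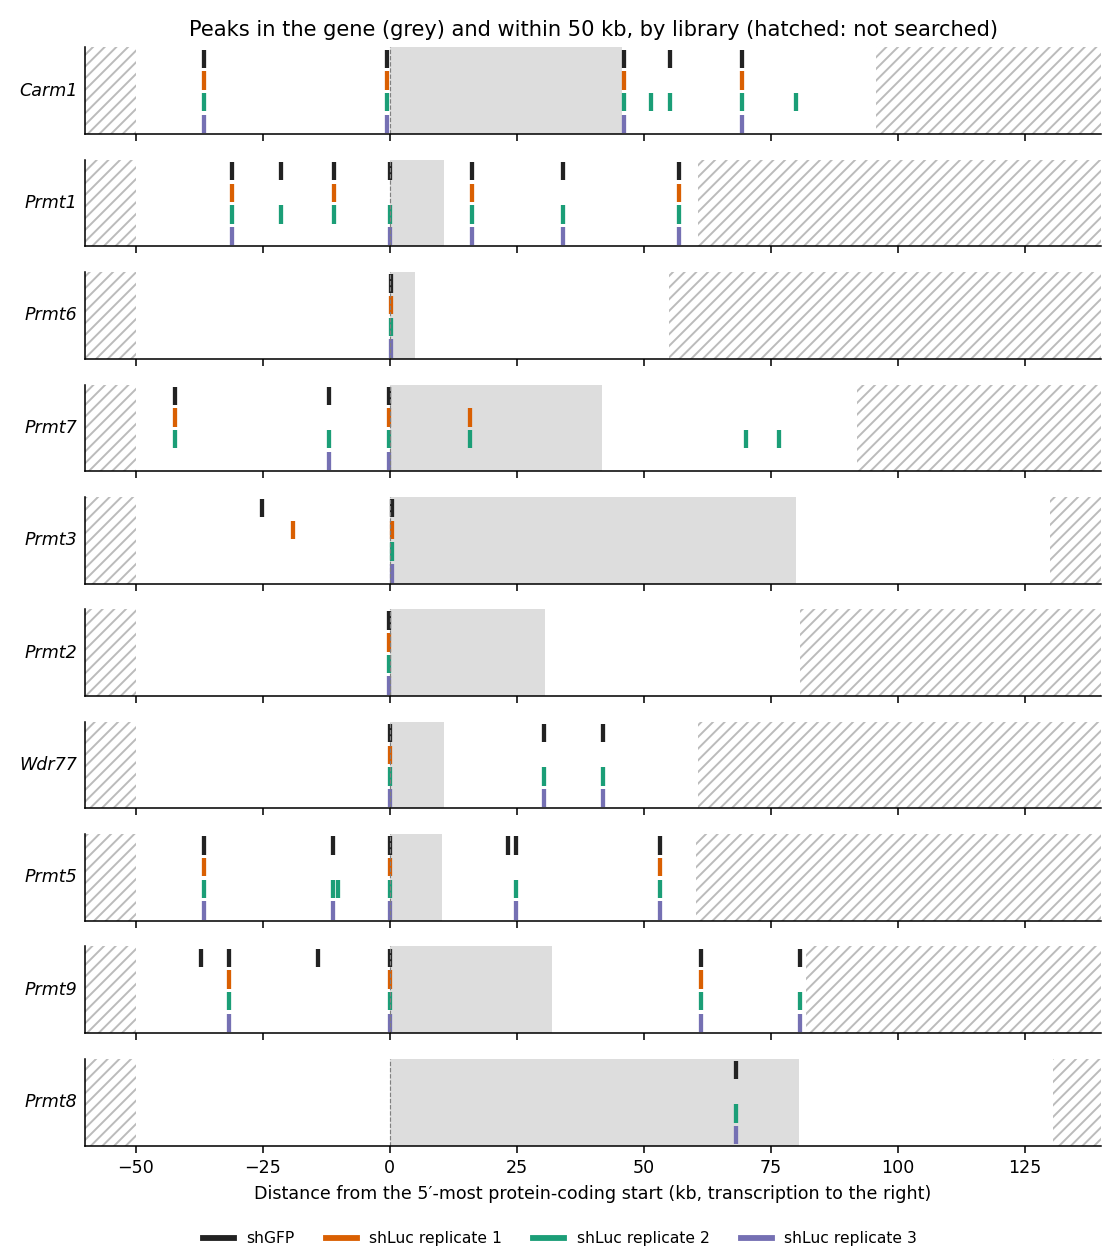
Peaks in each gene (grey) and within 50 kb of it (outside the hatching), in kb from the 5′-most protein-coding start with transcription to the right, with a row of ticks for each library. Prmt2 and Prmt6 have their promoter peak only, Prmt1, Prmt5 and Prmt9 have several peaks on both sides, Carm1 has most of its peaks downstream, and Prmt8 has a tick 68 kb into the gene in 3 libraries and none at its start.

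Genes of the same pathway were read from lists of 55 genes in all, of which 34 had a promoter peak in all 4 libraries, 16 in 1 to 3 and 5 in none, beside 42.5% of all protein-coding genes in all 4 and 35.3% in none. No test of any list against these shares was run. Genes were ranked by mean width over the 4 libraries with a missing peak counted as no width. A gene with wider peaks in fewer libraries could therefore rank lower. Of 6 cofactors of the enzymes, 4 had one in all 4 libraries and none lacked it throughout. The widest on average were Clns1a, which brings Sm proteins to Prmt5 (1064 bp in shGFP, then 541, 1829 and 1120 bp in the shLuc replicates), and Coprs, which recruits Prmt5 to histones (1302 bp, then 667, 1009 and 1038 bp). Both were named for the width of their peaks, so their having promoter peaks is not a result about partners of Prmt5. Of 10 genes of methyl donor supply, 6 had a promoter peak in all 4 libraries and 4 in 1 to 3. By that mean, their widest were Ahcyl2, related to the enzyme that clears S-adenosylhomocysteine (2068 bp in shGFP, then 1245, 1971 and 2450 bp), and Mtr, methionine synthase (1130 bp, then 735, 1143 and 1028 bp).

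Of 16 substrates, 13 had a promoter peak in all 4 libraries and 3 in fewer, again beside 42.5% of all protein-coding genes in all 4. By mean width with a missing peak counted as no width, their widest were Hnrnpa1, an RNA-binding protein methylated by Prmt1 (1422 bp in shGFP, then 1084, 1233 and 1398 bp), and Snrpd3, an Sm protein methylated by Prmt5 (1046 bp, then 1113, 1304 and 1298 bp). Of 14 Tudor-domain and other readers, 9 had a promoter peak in all 4 libraries, 4 in fewer, and Tdrd1 in none. By the same mean, the widest were Tdrd3, a reader of asymmetric dimethylarginine (2183 bp in shGFP, then 1331, 2119 and 2101 bp), and Spin1, a histone reader (1659 bp, then 1082, 1292 and 1477 bp). Of the 9 genes of removal, citrullination and breakdown, 2 had a promoter peak in all 4 libraries, 3 in fewer and 4 in none, beside 42.5% in all 4 and 35.3% in none over all protein-coding genes. Ddah1, which breaks down free methylarginine (1330 bp in shGFP, then 980, 1272 and 1175 bp), and Jmjd6 (1225 bp, then 826, 1078 and 1044 bp) had wide peaks, whereas Agxt2 and the citrullinating enzymes Padi1 and Padi4 were among those with none.

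**Figure D5:**
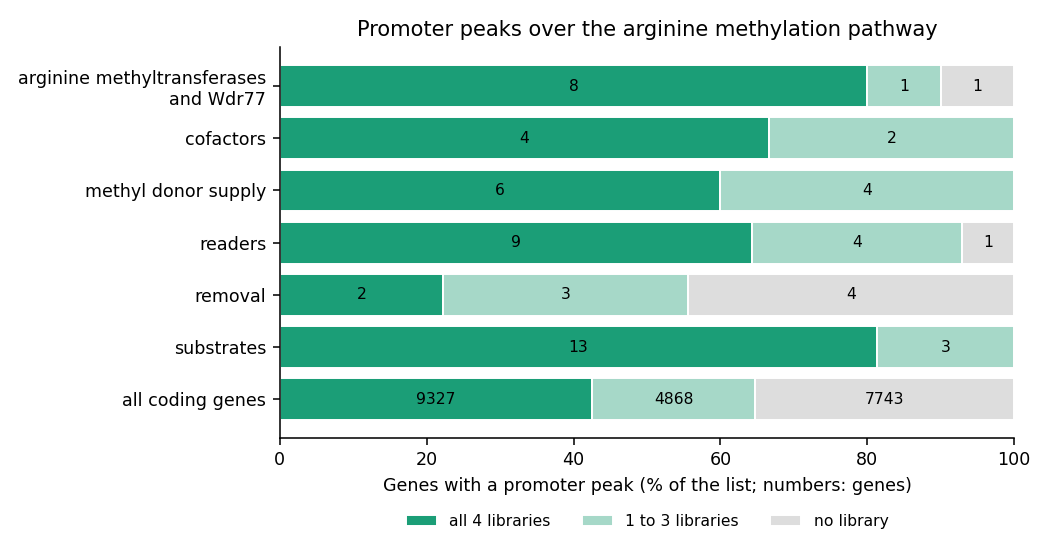
Share of the genes of each list (horizontal axis, percent) with a promoter peak in all 4 libraries, in 1 to 3 and in none, with the number of genes written in each bar. The arginine methyltransferases with Wdr77 had 8 of 10 and the substrates 13 of 16 in all 4 libraries, whereas the removal list had 2 of 9.

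Marker genes of several cell types were read beside the shares of all protein-coding genes with a promoter peak, 60.7% in shGFP and 46.8%, 60.3% and 55.1% in the shLuc replicates. Of 10 markers of ESCs, 4 had a promoter peak in shGFP and 1, 4 and 4 in the shLuc replicates. Counted by gene, 5 had none in any library, as Prmt8 did, among them the defining genes Pou5f1, Nanog and Sox2. Another 4 had one in 1 to 3 libraries. The remaining marker was Zfp42, whose promoter peak measured 409 bp in shGFP and 379, 427 and 391 bp in the shLuc replicates. Over all protein-coding genes, 35.3% had no promoter peak in any library and 42.5% had a promoter peak in all 4. Of 8 markers of neurons, where Prmt8 is known to be used, 7 had one in shGFP and 2, 8 and 6 in the shLuc replicates. Of 6 markers of embryonic fibroblasts, 3 had one in shGFP and 2, 4 and 2 in the shLuc replicates, of 5 markers of extraembryonic endoderm 3 and then 1, 2 and 2, and of 4 markers of mesoderm and muscle 0 and then 0, 3 and 0. Pou5f1, Nanog and Sox2, defining genes of the labelled cells, thus lacked a promoter peak too. Closed chromatin at the Prmt8 start and a peak missed by depth or by the caller's threshold therefore cannot be told apart in any of the 4 lists. Whether Prmt8 was transcribed was not tested here.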

How the data were processed

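ATAC-seq had been done on 4 libraries of E14 ESCs, 1 shGFP and 3 shLuc. The authors deposited 1 peak list per library, with the chromosome, start and end of each peak in bp and no score. According to the methods and the submitters' processing notes, reads were demultiplexed with bcl2fastq and aligned with Bowtie2 to mm10, ties were placed at random among the best positions, mitochondrial and unassigned sequences were dropped, concordant pairs were kept, and MACS2 was named as a tool. Its settings, its threshold and any shift of reads for the transposase are not given in the sources used here. The lists give no numbers of reads or counts per peak. Of the read totals in the supplement of the study, only which library had the fewest was used, so no counting interval is given.

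Peaks were compared with the 141767 transcripts of GENCODE mouse release 21 on 21 chromosomes, in Python 3.11.15 with numpy 2.4.6 and numba 0.67.0 (words of 50 bases counted over the genome), and drawn with matplotlib 3.10.9. Widths of several promoter peaks of a gene were summed. Coordinates count from 1. The interval functions were tested on simulated data and gave 4001 of 4001 right calls. Groups came from the labels, and shLuc values are given as mean ± SD. Named were all 10 members, genes sharing their promoter peaks, and genes nearest to the peaks around Prmt8. Of each pathway list, the 2 with the largest mean width over all libraries were named, with a missing peak counted as no width. Up to 3 without a promoter peak were added in alphabetical order. Of the markers, Pou5f1, Nanog, Sox2 and Zfp42 were named outside these rules. Members and lists were chosen with earlier results of these data known. Alternatives were other promoter windows and distances, coding starts only, peak centres, the widest peaks of each list, and leaving out each shLuc library. RefSeq promoter windows matched 9 of the 10 genes.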

Additional observations from a re-analysis of the deposited data

How the results depend on the processing

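Over 11 results and 11 alternative settings, 79 of 95 values stayed near the reported ones and 16 moved, where near means within 1.5 times a count or share and within 1 SD of the shLuc libraries for a median width. With the widest 50% of each list, members with a promoter peak in all libraries fell from 8 to 5 (without Prmt5, Prmt6 and Prmt9) and the share of protein-coding genes to 25.3%; nonpromoter peaks around Prmt8 became 0 in shGFP and 0 in the shLuc mean, and the median of the other members 1 and 0.667. With the widest 17860 peaks of each list these 4 values were 0, 0, 1 and 1.33. At that setting 6 members had a promoter peak in all libraries (without Prmt5 and Prmt9), beside 31.6% of protein-coding genes. Within 20 kb the median of the other members was 1 in shGFP and 0.667 in shLuc, the same as the values of Prmt8, and within 100 kb 5 and 4, against 2 and 2.67 for Prmt8. Leaving out each shLuc library in turn gave 8 to 9 members in all libraries, a shLuc mean of 8.5 to 9 members, a median width of 769.5 to 897 bp, 0.5 to 1 peaks around Prmt8, 2 to 2.5 around the other members, and a share of protein-coding genes of 42.9% to 52.5%. Without shLuc replicate 1, Prmt1 also had a promoter peak in every library. Prmt8 had no promoter peak, and was alone in this, in all of these settings. None of them could have given it one: the nearest peak lay at least 58788 bp from its start, and the widest promoter window was 5 kb. No paired analysis was possible because there was 1 shGFP library and no test was run. Peak lists without scores or read counts limit these values: width follows the depth and the caller's threshold, which the lists do not give.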

Other observations

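Short motifs were searched on both strands of the 300-base promoter windows of 9 members and of all 32851 windows in the RefSeq table, and a match is a description of the letters only. The GC box GGGCGG was in the windows of 6 members (Prmt1, Prmt2, Prmt3, Prmt7, Prmt8 and Wdr77) and in 35.7% of all windows. The Prmt8 window held 2 copies of it and the Prmt1 window 4. CCAAT was in 4 (Prmt1, Prmt2, Prmt3 and Prmt5) and in 37.4% of all windows, with 4 copies in the Prmt5 window, which had no GC box, and 3 in that of Prmt1. The E-box CACGTG was in 3 (Prmt1, Prmt3 and Wdr77; 7.15% of all windows), the ETS core CCGGAA in 2 (Prmt2 and Prmt3; 14.9%) and the YY1 core ATGGCG in 2 (Prmt1 and Prmt6; 8.93%). TATAAA was in the Prmt2 window alone (13.6%), and GCGCATGC, part of the NRF1 motif, was in no member (2.71%). The window of Prmt9 held none of these letters, although its promoter peak was present in all 4 libraries.

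The letters TCGCGA were chosen after the Wdr77 window had been read. They occurred 3 times in that window, in none of the other 8, and in 2.50% of all windows. The windows of Prmt5 and Wdr77, whose products act as a complex, thus shared none of the motifs searched. Both were covered by a peak over their whole length in all 4 libraries, as were the windows of Prmt2 and Prmt7.

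Words of 50 bases that recur in the genome were found in 2 of the 9 own promoter regions of the members, Prmt5 (4.09% of its words) and Wdr77 (0.117%), and in 5 of the 33 nearby regions, where they reached 21.2%.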
